A study of Mus musculus with 8 samples.

Results

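The interleukin-1 (IL-1) family and the inflammasome were examined in the epididymal fat of mice through 9 genes: the ligands Il1b, Il1rn and Il18, the receptors Il1r1 and Il1r2, the binding protein Il18bp, and the inflammasome genes Casp1, Nlrp3 and Pycard. They were chosen by symbol: every probe set of the array whose only gene symbol in the probe annotation is 1 of these 9. The array carries 14 such probe sets of its 45101, and 11 of the 14 passed the filter on dim probe sets. All 9 genes had a probe set past the filter, of 11232 genes tested, and the brightest one stood for its gene.

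All mice were male C57BL/6J, 6 weeks old at the start, and each of the 8 arrays measured the fat pad of 1 mouse. The groups held 2 mice each. The telmisartan mice ate a high-fat diet (HFD) with 30% of calories from fat for 24 weeks and then had about 3 mg/kg/day of telmisartan in drinking water for 5 weeks. The candesartan mice had the same diet and then candesartan at the same dose, by the same route and for the same time. Both drugs block the angiotensin II type 1 receptor. The HFD mice had the high-fat diet and no drug in those weeks, and the chow mice had feed with 10% of calories from fat for 24 weeks. The labels do not state the chow mice's feed during the 5 drug weeks. Diet and drugs were the only interventions that the labels name.

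IL-1β, the product of Il1b, is made as an inactive precursor and signals through the receptor IL-1R1, the product of Il1r1. The family has its own brakes: Il1rn encodes a receptor antagonist that occupies IL-1R1 without signalling, Il1r2 encodes a decoy receptor with no signalling domain, and Il18bp encodes a protein that binds and neutralizes interleukin-18. The inflammasome is the complex in which the sensor NLRP3 and the adaptor ASC, the product of Pycard, activate caspase-1, which cuts the precursors of IL-1β and interleukin-18. Macrophages of obese fat are a known source of several of these products.

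Signals below are linear intensities scaled to a common trimmed mean. Fold changes come from a limma fit on the log2 scale, where a gene counted as called if its adjusted p (Benjamini-Hochberg, across the 11232 genes) was under 0.05. The trimmed mean signal before scaling was 178 to 265 over the arrays. Replicate arrays differed, as the SD of their log2 difference across genes, by 0.48 for telmisartan, 0.31 for candesartan, 0.27 in HFD mice and 0.44 in chow mice. The telmisartan and chow pairs were the least alike. In fat as a whole, fewer cells of a type and less RNA per cell cannot be told apart. The adipocyte marker Adipoq read 18324 and 15764 with telmisartan, 16926 and 16606 with candesartan, 15646 and 16814 in HFD, and 15423 and 17415 in chow. The groups overlapped, and none of the 5 measured epididymis and testis markers passed the filter.

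In the plot of all 9 genes by array, the members fell into 3 patterns. Il1rn, Casp1 and Pycard were higher on each of the 6 high-fat arrays than on either chow array, at similar levels with and without drug. Il1r2 was also higher on each of the 6, and highest with telmisartan. Il1b, Il18, Il1r1, Il18bp and Nlrp3 did not pass the threshold against chow in any group.

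**Figure D1:**
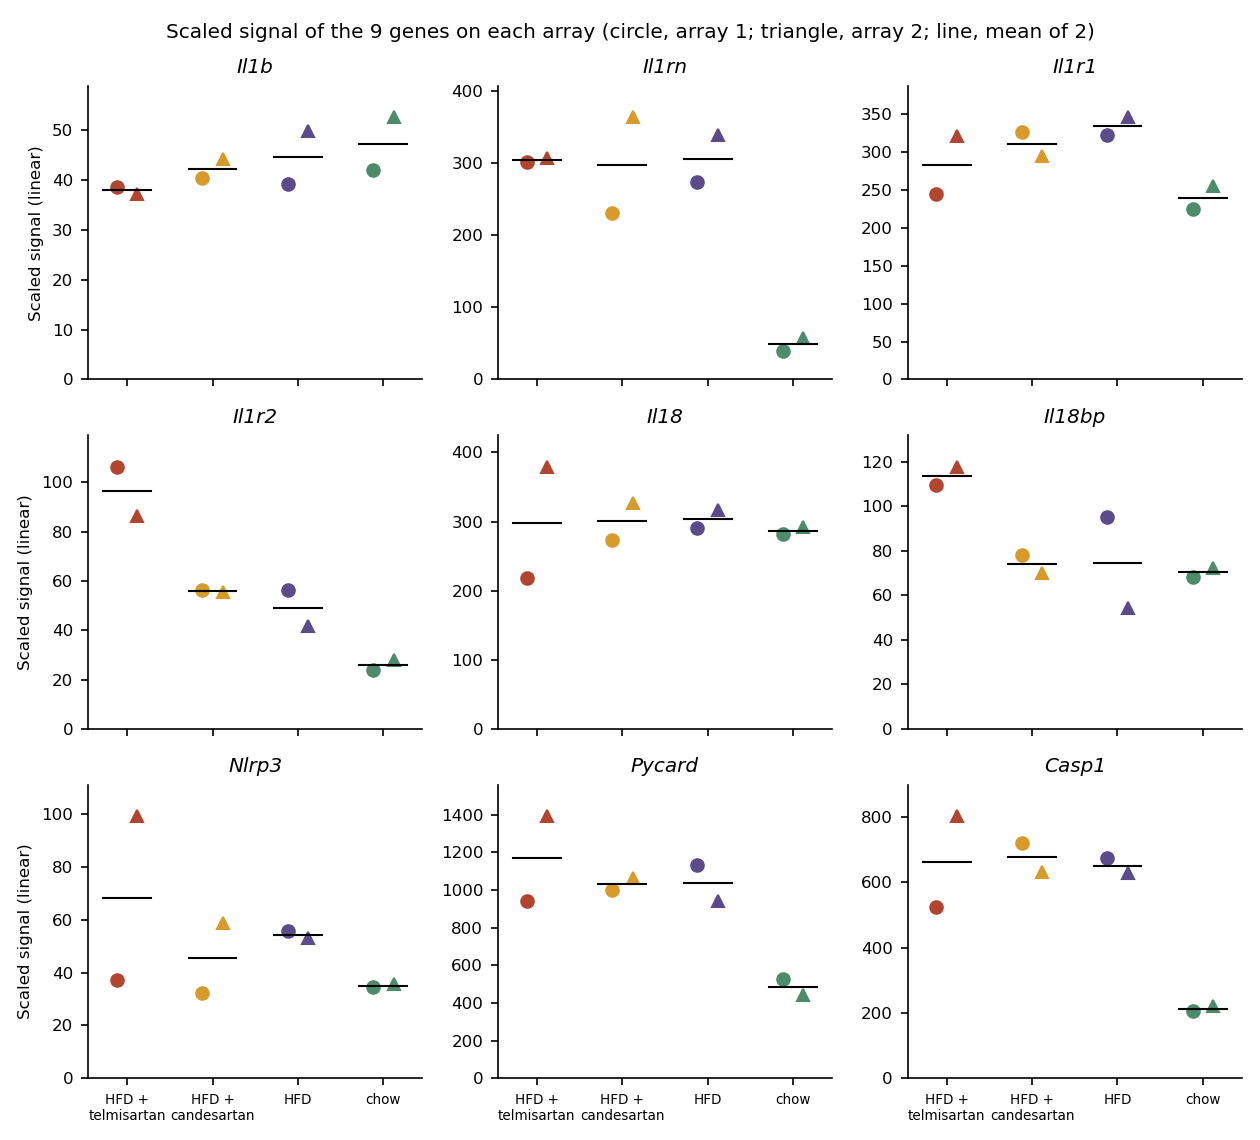
Scaled linear signal of the 9 genes on each of the 8 arrays, with 2 arrays per group (circle, array 1; triangle, array 2; line, mean of the 2). Il1rn sat between 231 and 364 on the 6 high-fat arrays and at 39.4 and 58.1 on the chow arrays, while Il1b sat between 37.3 and 52.6 on all 8.

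The bases before the start of 4 members are shown: Il1rn, Casp1 and Pycard, which were called higher in high-fat fat, and Il1b, a dim gene that was not called. They are from RefSeq on build GRCm38.p6, which matched 9 of the 9 members by symbol with 13 start sites in all, and each covers the 250 bases before a start, 5′ to 3′ on the gene's own strand. The first is Il1rn (first of its starts, chr2:24336610-24336859, plus strand), then Casp1 (chr9:5298267-5298516, plus strand), Pycard (chr7:127993868-127994117, minus strand) and Il1b (chr2:129371140-129371389, minus strand). Capitals mark a match to a motif searched on both strands: AP-1 (TGANTCA), PU.1 (GAGGAA, written as its reverse complement where it lies on the other strand) or the NF-kB site.
Il1rn: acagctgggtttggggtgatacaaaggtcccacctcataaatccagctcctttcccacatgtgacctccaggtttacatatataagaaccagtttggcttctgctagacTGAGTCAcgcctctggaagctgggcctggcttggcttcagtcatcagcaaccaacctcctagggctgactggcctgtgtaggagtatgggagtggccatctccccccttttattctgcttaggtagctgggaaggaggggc
Casp1: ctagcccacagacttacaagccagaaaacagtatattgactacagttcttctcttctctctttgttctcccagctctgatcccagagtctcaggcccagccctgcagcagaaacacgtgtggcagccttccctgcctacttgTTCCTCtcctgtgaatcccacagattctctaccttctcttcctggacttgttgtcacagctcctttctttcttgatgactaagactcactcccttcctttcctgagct
Pycard: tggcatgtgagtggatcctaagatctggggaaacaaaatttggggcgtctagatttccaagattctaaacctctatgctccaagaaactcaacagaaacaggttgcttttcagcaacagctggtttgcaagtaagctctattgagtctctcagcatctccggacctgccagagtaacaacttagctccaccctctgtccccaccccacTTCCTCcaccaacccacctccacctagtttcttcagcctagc
Il1b: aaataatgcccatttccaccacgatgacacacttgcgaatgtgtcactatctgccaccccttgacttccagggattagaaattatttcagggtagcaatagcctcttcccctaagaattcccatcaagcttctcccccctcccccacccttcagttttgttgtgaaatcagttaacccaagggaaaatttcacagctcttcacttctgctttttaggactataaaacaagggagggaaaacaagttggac
The Il1rn window shown holds an AP-1 match, TGAGTCA, 141 to 135 bases before the start, and the windows of its other 2 starts hold no match. Of 32841 promoter windows of the same length, 6.75% hold that motif. Casp1 holds a PU.1 match 108 to 103 bases before the start, and Pycard holds one 42 to 37 bases before it, a motif present in 23.3% of windows. The Il1b window has none of the 3 motifs in these letters. Among the other members, the NF-kB site, present in 3.9% of windows, matched 1 start of Nlrp3 and 1 of Il1r1, and the other start of Nlrp3 held 3 PU.1 matches. Il18, Il1r2 and Il18bp had no match. Whether any match bears on the signals was not tested.

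Among the ligands, Il1rn was higher in HFD than in chow mice, and Il1b and Il18 did not pass the test. Il1rn read 301 and 308 with telmisartan, 231 and 364 with candesartan, 274 and 339 in HFD, and 39.4 and 58.1 in chow. The lowest high-fat array was the first candesartan one, and it was still above both chow arrays. Group means were 304.5 ± 4.54 with telmisartan, 297.5 ± 93.8 with candesartan, 306.6 ± 45.6 in HFD and 48.7 ± 13.2 in chow (SD, n = 2 each). Il1rn was 6.38-fold higher in HFD than in chow (log2 2.67, 95% interval 2.07 to 3.28, limma adjusted p = 0.00116). The call held when each of the 8 arrays was left out in turn, with log2 values of 2.39 to 2.95.

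Il1rn has 3 probe sets past the filter, which serve as further readings of the same RNA on the same arrays. In a fit of every probe set, the other readings put HFD over chow at log2 2.95 (limma adjusted p = 0.000869) and 2.27 (limma adjusted p = 0.00624), against 2.67 for the brightest (limma adjusted p = 0.00189). For HFD against chow the 3 probe sets thus differed in size and not in direction. On the chow arrays the reading at log2 2.95 gave 33.9 and 38.2, and the reading at 2.27 gave 20.2 and 24.2. All these chow values lie under the filter's cut (a signal of 40.5). These probe sets thus passed it through their high-fat arrays, and their folds rest on a dim baseline. The brightest probe set was also under the cut on the first chow array (39.4), and above it on the second (58.1). Between telmisartan and HFD the other readings went opposite ways. The reading at log2 2.95 gave 340 and 334 with telmisartan, and 249 and 313 in HFD. The reading at 2.27 gave 85.1 and 69.2 with telmisartan, and 105 and 109 in HFD.

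Il1b gave a dim signal, at the 50.8th percentile of probe sets and just past the filter. It read 38.7 and 37.3 with telmisartan, 40.3 and 44.2 with candesartan, 39.3 and 49.8 in HFD, and 42.1 and 52.6 in chow. The telmisartan pair was the lowest of the 4, below both chow arrays and both HFD arrays, and the HFD and chow pairs overlapped. HFD against chow was log2 −0.09 (95% interval −0.80 to 0.62, limma adjusted p = 0.901). The data do not exclude a change within that interval. The sign of the Il1b value turned without the first HFD or the second chow array, within −0.26 to 0.08.

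Il18, whose product also needs caspase-1 to mature, read 218 and 379 with telmisartan, 274 and 327 with candesartan, 291 and 317 in HFD, and 281 and 292 in chow. The groups overlapped, and the telmisartan pair alone spanned every other array. HFD against chow was log2 0.09 (95% interval −0.47 to 0.64, limma adjusted p = 0.875).

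Of the receptors and decoys, only Il1r2 passed the test in any comparison. The decoy receptor Il1r2 read 106 and 86.6 with telmisartan, 56.4 and 55.7 with candesartan, 56.4 and 41.9 in HFD, and 23.9 and 27.9 in chow. All 6 high-fat arrays were above both chow arrays, and both telmisartan arrays were above all others. Both chow arrays read under the filter's cut on the mean (a signal of 40.5), so Il1r2 passed it through its high-fat arrays. Means were 96.4 ± 14.0 with telmisartan, 56.0 ± 0.509 with candesartan, 49.2 ± 10.3 in HFD and 25.9 ± 2.88 in chow (SD, n = 2 each). HFD alone over chow was 1.88-fold (log2 0.91, 95% interval 0.24 to 1.59) and did not pass the threshold (limma adjusted p = 0.100).

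Il1r1, the signalling receptor, read 244 and 321 with telmisartan, 326 and 294 with candesartan, 323 and 346 in HFD, and 225 and 255 in chow. HFD and candesartan lay above chow on both arrays, and the first telmisartan array lay between the chow arrays. HFD against chow was log2 0.48 (95% interval 0.08 to 0.88, limma adjusted p = 0.137). Il18bp read 110 and 118 with telmisartan, 78.4 and 70.1 with candesartan, 95.1 and 54.2 in HFD, and 68.4 and 72.4 in chow. The 2 HFD arrays bracketed both chow arrays, and only the telmisartan pair stood clear. HFD against chow was log2 0.03 for Il18bp (95% interval −0.63 to 0.69, limma adjusted p = 0.966).

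Casp1 and Pycard, the enzyme and the adaptor of the inflammasome, rose on the high-fat diet, and the sensor Nlrp3 did not pass the test. Casp1 read 524 and 802 with telmisartan, 721 and 632 with candesartan, 674 and 628 in HFD, and 205 and 221 in chow. Every high-fat array was above both chow arrays by more than the distance between replicates. Means were 663 ± 197 with telmisartan, 676 ± 62.7 with candesartan, 651 ± 32.9 in HFD and 213 ± 11.2 in chow (SD, n = 2 each). Casp1 was 3.05-fold higher in HFD than in chow (log2 1.61, 95% interval 1.15 to 2.07, limma adjusted p = 0.00287), and the call held without any 1 of the 8 arrays. With no filter on dim probe sets its adjusted p was 0.0523 in limma.

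Pycard read 944 and 1392 with telmisartan, 999 and 1066 with candesartan, 1132 and 941 in HFD, and 529 and 442 in chow. The high-fat arrays did not overlap with chow. Pycard was 2.13-fold higher in HFD than in chow (log2 1.09, 95% interval 0.64 to 1.55, limma adjusted p = 0.0154). Without the second chow array, the first HFD array or the second HFD array this call was lost (limma adjusted p = 0.0642, 0.139 and 0.0756 in that order), at log2 values of 0.96 to 1.23. Leaving out an HFD or chow array leaves 1 array in its group, which is then taken to vary like the other groups.

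Nlrp3 read 37.2 and 99.1 with telmisartan, 32.2 and 58.5 with candesartan, 55.6 and 53.2 in HFD, and 34.4 and 35.6 in chow. The HFD and chow pairs were tight and apart, whereas the drug groups each held 1 array near the chow level and 1 at or above the HFD level. Both chow arrays and the first array of each drug group read under the filter's cut (a signal of 40.5). Nlrp3 thus passed it through its other high-fat arrays. HFD against chow was log2 0.64 (95% interval −0.47 to 1.74, limma adjusted p = 0.468). The residual SD of Nlrp3 was 0.59 on the log2 scale, at the 96.7th percentile of all genes, against 0.17 for Il1b and Il1r1.

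In all, 3 of the 9 members were called in HFD against chow, all of them higher, where 8.09% of all genes were called and 5.15% were called higher. In 6 of the 9 both HFD arrays lay above both chow arrays (27.8% of all genes), and in 0 both lay below (30.3% of all genes). The 6 include Il1r2 and Nlrp3, whose chow arrays all read under the filter's cut, so both genes passed it through high-fat arrays. The median log2 change of the 9 was 0.64, beside −0.01 over all genes tested. That median is the value of Nlrp3, which was not called.

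With all 6 high-fat arrays set against the same 2 chow arrays, 4 of the 9 members were called, all higher, where 13.5% of all genes were called and 7.59% were called higher. Il1rn was 6.27-fold higher (log2 2.65, 95% interval 2.15 to 3.14, limma adjusted p = 0.000291). Casp1 was 3.09-fold higher (log2 1.63, 95% interval 1.25 to 2.00, limma adjusted p = 0.000628), and Pycard was 2.21-fold higher (log2 1.14, 95% interval 0.77 to 1.52, limma adjusted p = 0.00325). The added member was Il1r2, at 2.48-fold (log2 1.31, 95% interval 0.76 to 1.86, limma adjusted p = 0.0100). Its chow readings lie under the filter's cut, so this fold rests on a dim baseline. Il1r2 was no longer called without the first chow array (limma adjusted p = 0.0583), and the other 3 calls held without any 1 array.

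These 4 were also the members whose 6 high-fat arrays lay wholly above chow, as did 14.8% of all genes. The remaining 5 were not called: Il1r1 at log2 0.36 (95% interval 0.03 to 0.69), Nlrp3 at 0.58 (−0.32 to 1.48), Il18bp at 0.26 (−0.27 to 0.80), Il18 at 0.05 (−0.40 to 0.51) and Il1b at −0.18 (−0.76 to 0.40). Of these, Il1r1 was called without the first telmisartan array (log2 0.43, limma adjusted p = 0.0373).

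Each drug group was also set against chow. The chow arrays are the same in all 3 comparisons, so their results are not independent of each other. With telmisartan 4 members were called, all higher (8.44% of all genes were called, 4.96% higher): Il1rn at log2 2.67 (limma adjusted p = 0.00144), Il1r2 at 1.89 (0.00812), Casp1 at 1.61 (0.00327) and Pycard at 1.25 (0.00865). All 4 held without any 1 array, and Pycard was lost with no filter (limma adjusted p = 0.0688). With only the arrays compared, Pycard and Il1r2 were lost (limma adjusted p = 0.0572 for both). With candesartan 3 members were called, all higher (6.59% of all genes were called, 4.48% higher): Il1rn at log2 2.60 (limma adjusted p = 0.00146), Casp1 at 1.66 (0.00256) and Pycard at 1.09 (0.0171). Pycard was lost without the second chow array or either candesartan array (limma adjusted p = 0.0733, 0.0877 and 0.158).

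Il1r2 was 3.71-fold higher with telmisartan (95% interval 1.22 to 2.57 on the log2 scale) and 2.17-fold with candesartan (0.44 to 1.79), and the candesartan value missed the threshold (limma adjusted p = 0.0621). Il18bp was at log2 0.69 with telmisartan (0.03 to 1.35, limma adjusted p = 0.183) and 0.07 with candesartan. Nlrp3 was at log2 0.79 with telmisartan and 0.31 with candesartan, and neither was called. Leaving out 1 array moved the telmisartan value of Nlrp3 between 0.087 and 1.5. In 6 members both telmisartan arrays lay above chow (22.4% of all genes) and in 1, Il1b, both lay below (25.2% of all genes). In 5 members both candesartan arrays lay above chow (25.8% of all genes). Il1r2 is among those above chow for both drugs and Nlrp3 for telmisartan, each with both chow arrays under the filter's cut.

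**Figure D2:**
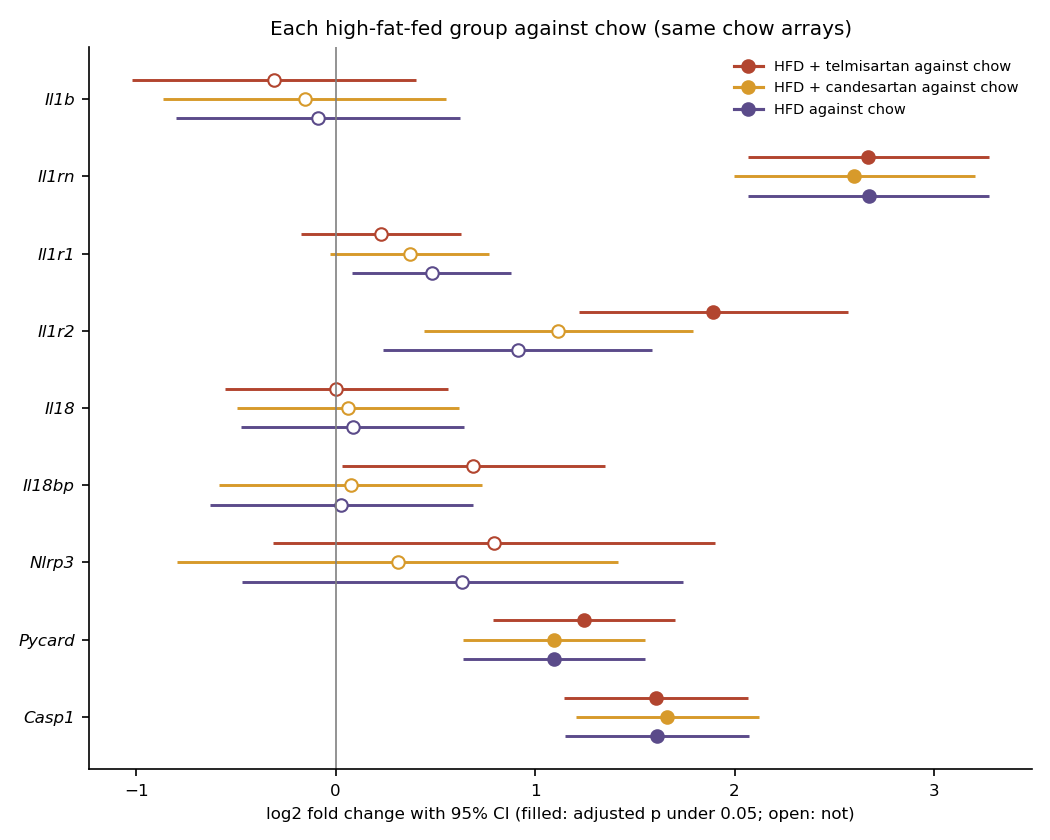
Log2 fold change of each member against the same 2 chow arrays, for telmisartan, candesartan and HFD without drug; lines are 95% intervals and filled points have an adjusted p under 0.05. Il1rn, Casp1 and Pycard are filled in all 3 comparisons, and Il1r2 is filled for telmisartan at 1.89.

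The balance of a ligand or receptor with its inhibitor was followed as a signal ratio within each array, read only as a change between groups since different probe sets have different brightness. Relative to the chow mean, the log2 ratio of Il1rn to Il1b was 2.94 and 3.02 with telmisartan, 2.49 and 3.02 with candesartan, and 2.78 and 2.74 in HFD, against −0.12 and 0.12 in chow. The 6 high-fat arrays lay together, far above both chow arrays. Over all high-fat arrays against chow, Il1rn was at log2 2.65 and Il1b at −0.18. The ratio thus mostly restates the Il1rn values and is not separate evidence. It was 7.12-fold higher on the high-fat arrays (log2 2.83, two-sided exact permutation p = 0.0357, the smallest that 6 arrays against 2 allow). That p rose to 0.143 when either chow array was left out, which is then the smallest possible.

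For the decoy over the signalling receptor, the log2 ratio of Il1r2 to Il1r1 relative to chow was 2.01 and 1.32 with telmisartan, 0.68 and 0.81 with candesartan, and 0.70 and 0.17 in HFD, against −0.02 and 0.02 in chow. All 6 high-fat arrays lay above chow and the telmisartan pair was highest. The change was 1.93-fold (log2 0.95) and did not reach 0.05 (two-sided exact permutation p = 0.0714). The log2 ratio of Il18bp to Il18 was 1.03 and 0.34 with telmisartan, 0.22 and −0.20 with candesartan, and 0.41 and −0.52 in HFD, against −0.01 and 0.01 in chow. It spread to both sides of chow, with a mean change of log2 0.21 (two-sided exact permutation p = 0.571).

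**Figure D3:**
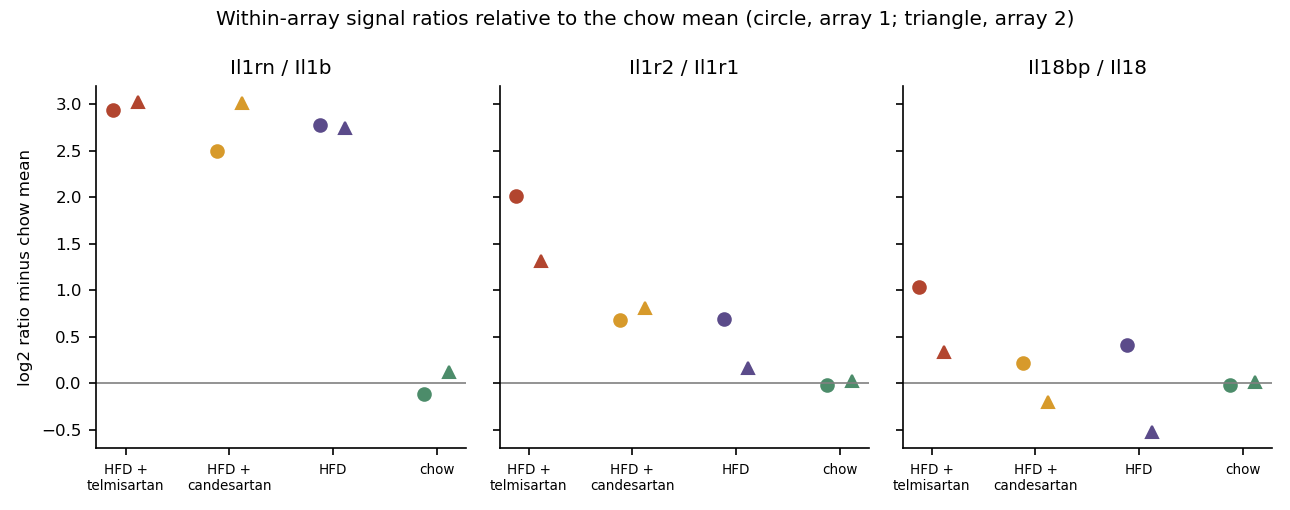
Log2 ratio of 2 signals on the same array minus its chow mean, for Il1rn over Il1b, Il1r2 over Il1r1 and Il18bp over Il18, with 2 arrays per group (circle, array 1; triangle, array 2). The Il1rn over Il1b ratio is between 2.49 and 3.02 on the 6 high-fat arrays.

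No member passed the threshold between a drug group and HFD without drug, and neither did any other gene: limma called 0 of 11232 (0%) for each drug. Without adjustment, 696 genes (6.2%) had p under 0.05 with telmisartan, among them 2 members, and 140 (1.25%) with candesartan, among them 0 members. Il1r2 was 1.97-fold higher with telmisartan than in HFD (log2 0.98, 95% interval 0.31 to 1.66, limma adjusted p = 0.766). Il18bp was 1.58-fold higher (log2 0.66, 95% interval 0.00 to 1.32, limma adjusted p = 0.766). Both telmisartan arrays lay above both HFD arrays for these 2 members (18.5% of all genes), and below them for Il1b and Il1r1 (19.5% of all genes). For candesartan 0 members separated from HFD, where 33.4% of all genes did in either direction.

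Il1rn, Casp1 and Pycard, the members called in HFD against chow, had small drug differences with wide intervals. With telmisartan against HFD, Il1rn was at log2 −0.00 (95% interval −0.61 to 0.60), Casp1 at −0.01 (−0.47 to 0.46) and Pycard at 0.15 (−0.31 to 0.61). The Il1rn value is that of its brightest probe set, and its other probe sets went opposite ways here. With candesartan against HFD, Il1rn was at −0.07 (−0.68 to 0.53), Casp1 at 0.05 (−0.41 to 0.51) and Pycard at 0.00 (−0.46 to 0.46). With 2 arrays a group, the data do not exclude an effect of either drug within these intervals. Nlrp3 had the widest intervals, at 0.16 with telmisartan (−0.95 to 1.27) and −0.33 with candesartan (−1.43 to 0.78). Its sign turned without the second telmisartan array (−0.55) and without the first candesartan array (0.11).

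**Figure D4:**
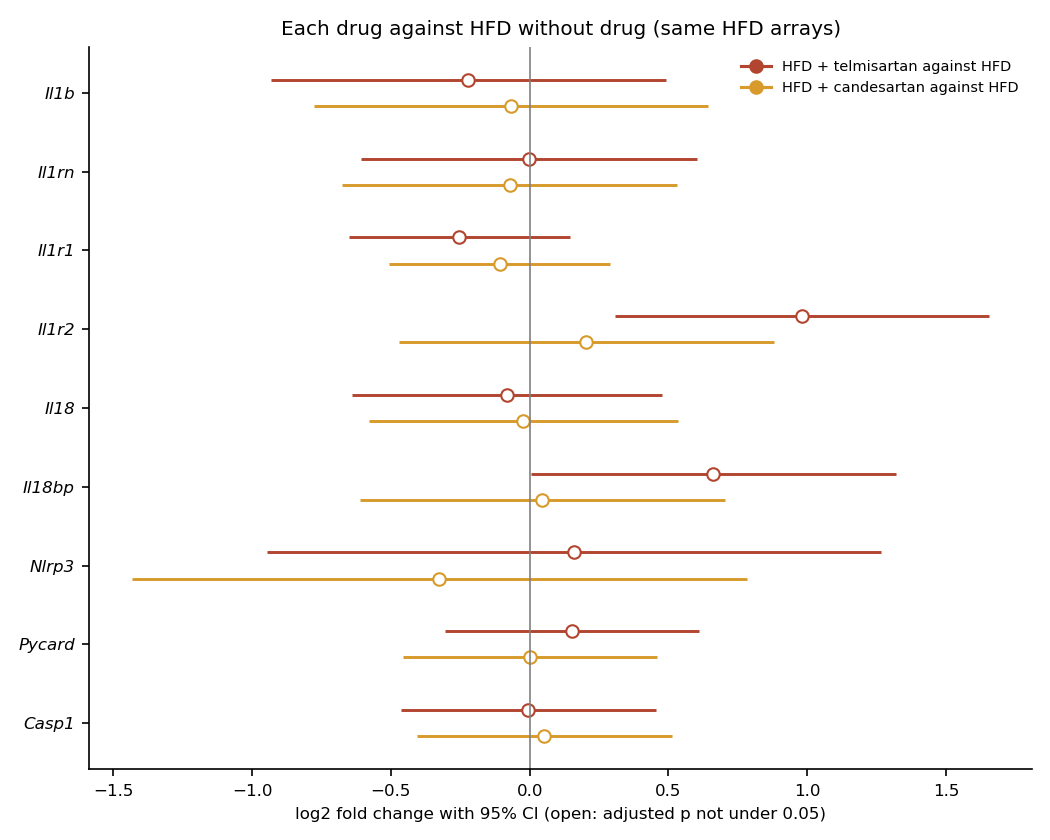
Log2 fold change of each member with telmisartan and with candesartan against the same 2 HFD arrays; lines are 95% intervals, and all points are open because none had an adjusted p under 0.05. Il1r2 with telmisartan is farthest from 0, at 0.98.

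The direct comparison of the drugs also called 0 of 11232 genes (0%), with 550 (4.9%) at an unadjusted p under 0.05. Il1r2 was 1.71-fold higher with telmisartan than with candesartan (log2 0.78, 95% interval 0.10 to 1.45, limma adjusted p = 0.924). Il18bp was at log2 0.62 (95% interval −0.04 to 1.27, limma adjusted p = 0.924). Both telmisartan arrays lay above both candesartan arrays for these 2 members (15.6% of all genes) and below them for Il1b (16.6% of all genes). With both drugs pooled against HFD, limma again called 0 genes (0%, 301 or 2.68% at an unadjusted p under 0.05), and Il1r2 was at log2 0.59 (95% interval 0.01 to 1.18, limma adjusted p = 0.999).

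Of 10 listed macrophage markers, 8 were called higher in HFD than in chow, where 5.15% of all genes were. The F4/80 gene Adgre1 read 1743 and 3503 with telmisartan, 2172 and 2935 with candesartan, 2629 and 2632 in HFD, and 620.3 and 660.0 in chow. The CD11c gene Itgax read 897 and 1470 with telmisartan, 1503 and 2106 with candesartan, 1560 and 1987 in HFD, and 195 and 217 in chow. Adgre1 and Itgax were higher in HFD than in chow by log2 2.04 (limma adjusted p = 0.00481) and 3.10 (0.000755). The lysosomal glycoprotein gene Cd68 was at 2.36 (0.000728), the Fc receptor gene Fcgr1 at 1.88 (0.0185), Cd14, a co-receptor for lipopolysaccharide, at 1.31 (0.0250) and the CD11b gene Itgam at 1.30 (0.0161). The lysozyme gene Lyz2 was at 0.65 (0.00911) and the CSF-1 receptor gene Csf1r at 0.61 (0.0309). Of the 8, Itgax and Cd68 kept this call without any 1 array, and the other 6 lost it without either HFD array. Those 6 also lost it with no filter on dim probe sets, and Csf1r and Lyz2 with median centring or no scaling. Csf1r also lost it with no intensity trend, and Fcgr1 with its probe sets averaged. Csf1r, Cd14, Itgam and Fcgr1 lost it without the first chow array, and Itgam also without the second. Csf1r lost it without either candesartan array as well. Mrc1, the mannose receptor gene, was at 0.60 (limma adjusted p = 0.295) and was not called. Mertk, a receptor for the uptake of dead cells, read 241 and 476 with telmisartan, 292 and 363 with candesartan, 365 and 401 in HFD, and 328 and 451 in chow. For Mertk both candesartan arrays lay just below both HFD arrays, and every other pair of groups overlapped. None of the 10 was at the floor on any array. Their summed signal was 29032 and 39832 with telmisartan, 31113 and 36246 with candesartan, 34014 and 34811 in HFD, and 16333 and 18435 in chow. The part of macrophage number in the values of Il1rn, Casp1, Pycard and Il1r2 was not tested.

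The 2 telmisartan mice differed in the same direction for several of these genes. The second array was above the first by log2 1.41 for Nlrp3, 1.01 for Adgre1, 0.80 for Il18, 0.71 for Itgax, 0.61 for Casp1 and 0.56 for Pycard. Il1rn differed by 0.03 between the same 2 arrays, and Il1r2 was lower on the second by 0.30. What set the 2 mice apart was not tested.

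Il1r2 is also a gene of neutrophils, so their markers stand beside it. Of 10 listed neutrophil markers 8 had a probe set and 3 passed the filter, S100a8, S100a9 and Csf3r. The granule genes Mpo, Elane, Camp and Ltf and the receptor gene Cxcr2 were under the filter. The summed signal of the 8 was 2088 and 1994 with telmisartan, 1445 and 1824 with candesartan, 1642 and 1436 in HFD, and 1451 and 745 in chow, with S100a8 making up most of it. The telmisartan pair was highest in that sum, and none of the 3 was called against chow or HFD. S100a9 was lower on both telmisartan arrays than on any HFD or chow array, at 38.9 and 27.8 with telmisartan, 37.7 and 50.6 with candesartan, 45.8 and 59.4 in HFD, and 66.6 and 48.3 in chow. Csf3r read 61.4 and 163 with telmisartan, 73.6 and 88.5 with candesartan, 76.1 and 77.0 in HFD, and 34.8 and 40.8 in chow, with the HFD pair between the 2 telmisartan arrays. The part of neutrophils in the Il1r2 values was not tested.

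The other genes of the pathway were taken from lists of 51, of which 43 had a probe set with a single symbol and 32 were tested. Of these 32, limma called 7 higher (7.59% of all genes) and 0 lower over all high-fat arrays against chow, and 5 higher (5.15% of all genes) and 0 lower in HFD alone against chow. Their median log2 change was 0.26 over all high-fat arrays, beside −0.03 for all genes. Against chow, 8 were called higher with telmisartan (the 7 and Ninj1), where 4.96% of all genes were, and 4 with candesartan (Naip2, P2rx4, Panx1 and Ctsb), where 4.48% were, and 0 lower in either. Without any 1 array, only Ctsb of the 8 and 0 of the 4 kept their calls throughout. In the comparisons between drugs and HFD 0 were called.

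Of the 7 called genes, 5 were in the list of inflammasome triggers and effectors, of which 11 were tested. P2rx7 and P2rx4, channels opened by extracellular ATP, were at log2 1.33 (limma adjusted p = 0.0133) and 1.25 (0.00336) over all high-fat arrays against chow. Panx1, a channel that releases ATP, was at 1.18 (0.00541), and Ctsb, a lysosomal protease, at 0.53 (0.00421). Casp4, the mouse caspase-11 that senses cytosolic lipopolysaccharide, was at 0.97 (0.0184). P2rx4, Panx1 and Ctsb kept their calls without any 1 array. P2rx7 lost its call without the first chow array (limma adjusted p = 0.102), and Casp4 without either chow array (0.0990 and 0.0807). With no filter on dim probe sets, or under another scaling for Ctsb, the calls of P2rx7, Casp4 and Ctsb were lost (limma adjusted p up to 0.0963, 0.0982 and 0.156).

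P2rx7 read 270 and 582 with telmisartan, 362 and 417 with candesartan, 435 and 421 in HFD, and 137 and 189 in chow. P2rx4 read 1247 and 1991 with telmisartan, 1318 and 1685 with candesartan, 1628 and 1662 in HFD, and 612 and 708 in chow. For both channels every high-fat array was above both chow arrays, and the telmisartan pair was the widest. Panx1 read 130 and 128 with telmisartan, 151 and 108 with candesartan, 154 and 134 in HFD, and 53.6 and 64.8 in chow, also without overlap.

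Among the sensors other than Nlrp3, 4 of 11 were tested and Naip2 was called (log2 1.27 over all high-fat arrays, limma adjusted p = 0.00750). The call was lost without the second chow array and with no filter (limma adjusted p = 0.0584 and 0.0644). Its relatives Naip5 and Naip6 were at 1.01 and 1.0 and were not called. The Naip genes are near-identical copies whose probes may read each other's RNA, so the 3 are not separate evidence. Aim2, the sensor of cytosolic DNA, was under the filter.

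Downstream of the receptor, 13 of 15 genes were tested and Myd88, the adaptor of IL-1 and Toll-like receptors, was called at log2 0.38 (limma adjusted p = 0.0411). That call was lost without either chow, HFD or candesartan array (limma adjusted p between 0.0829 and 0.134), and under other processing (up to 0.455). Gsdmd, which forms the pore of pyroptosis, was at log2 0.46 (limma adjusted p = 0.204), and Sigirr, a receptor that dampens IL-1 signals, at −0.51 (0.0581). Of the other family ligands, Il33 was tested and was at 0.45 (0.402), and Il1a was under the filter with a mean signal of 4.98.

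In HFD alone against chow, the called genes of the pathway were P2rx7 (log2 1.41, limma adjusted p = 0.0344), P2rx4 (1.32, 0.0104), Panx1 (1.29, 0.0138), Naip2 (1.32, 0.0223) and Ctsb (0.54, 0.0142). Each lost its call without either HFD array (limma adjusted p between 0.0858 and 0.186). Without the first chow array P2rx7, P2rx4, Panx1 and Naip2 were lost (0.148, 0.0549, 0.0612 and 0.0616), and without the second P2rx7 and Naip2 (0.0554 and 0.0819). P2rx7 was also lost without either candesartan array. With no filter on dim probe sets every one of these calls was lost. P2rx7 was also lost with no intensity trend or with its probe sets averaged. Ctsb was also lost with median centring, no scaling or no intensity trend. With telmisartan against chow, Ninj1, which ruptures the membrane of dying cells, was called besides the genes above (log2 0.50, limma adjusted p = 0.0432), and was lost in 7 of 8 fits that left out 1 array.

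**Figure D5:**
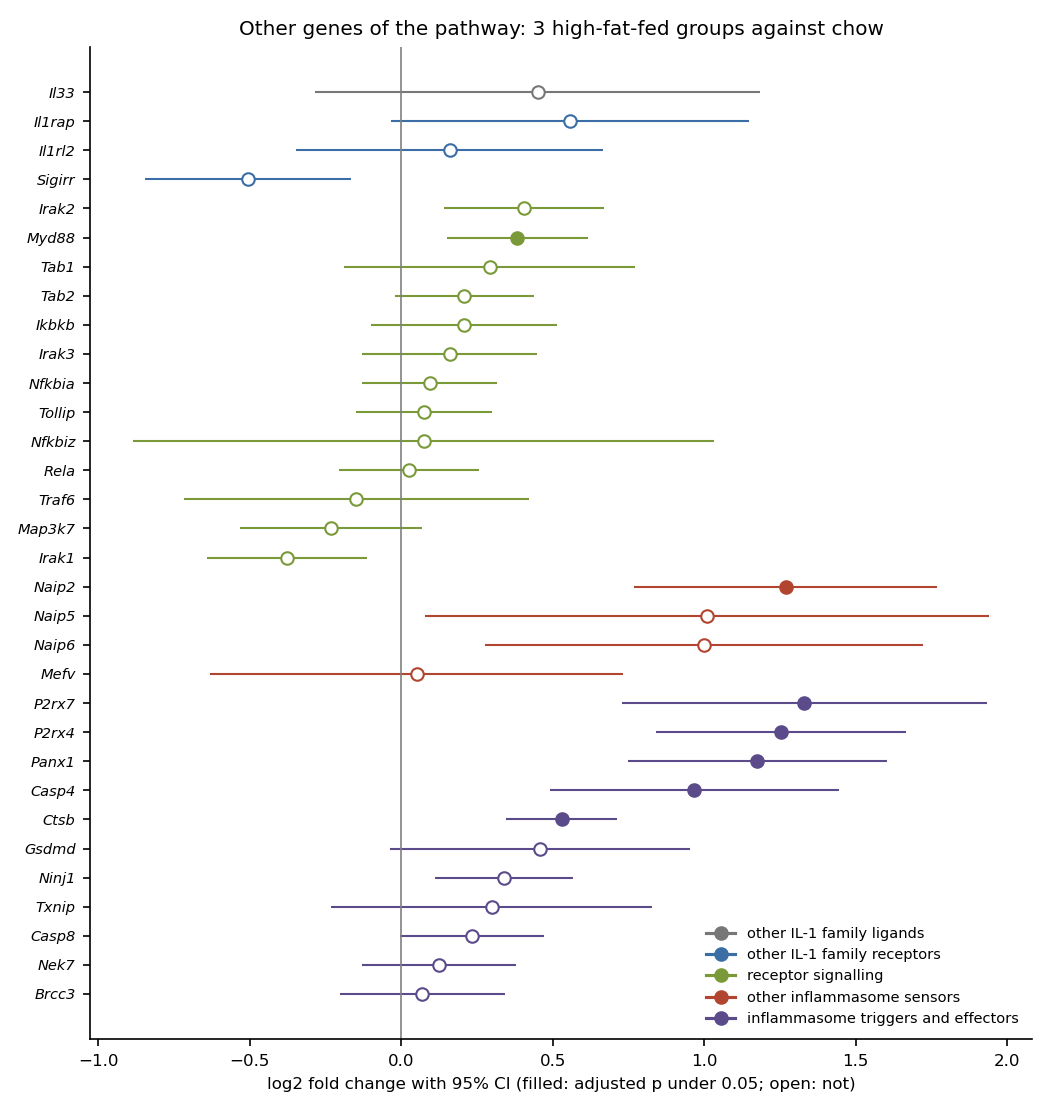
Log2 fold change of the 32 other pathway genes over the 3 high-fat groups against chow, coloured by list; lines are 95% intervals and filled points have an adjusted p under 0.05. The 7 filled points are Myd88, Naip2, P2rx7, P2rx4, Panx1, Casp4 and Ctsb, all to the right of 0.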

How the data were processed

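The deposited values are linear signal intensities per probe set, which the authors made with the GeneChip Analysis Suite software, per the series design text. Which algorithm version and target scaling they used is not given in the sources used here. Of 45101 probe sets, 34945 had a single symbol in the probe annotation, 932 had several, 9160 were unlisted and 64 were controls. Arrays were brought to a common mean signal, trimmed by 2%. Signals under the 20th percentile (6.69) were raised to it, and log2 was taken. Probe sets whose mean log2 signal was below the 50th percentile (a signal of 40.5) were dropped, and each gene was read from its brightest remaining single-symbol probe set.

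The model was limma 3.58.1 (R 4.3.3) with group means of all 8 arrays, an intensity trend and 4 residual degrees of freedom. Tests were two-sided, and 95% intervals reached a median of log2 0.44 to each side. Having 2 arrays a group limits the precision. Since 2 against 2 cannot go below p = 0.333 in an exact permutation test, that test served only the 3 ratios of 6 arrays against 2. The model was also tested on simulated data with known changes.

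All 9 members are named, with the genes of the pathway and marker lists that were called in any comparison, and the 2 genes most like each member. Any further list gene named without a call was picked with its values in view. The members, lists and rules were chosen with earlier results of these data known. Alternatives covered scaling, floor, filter, variance model, arrays in the fit, probe sets and leaving out each array. Replicates are separate mice, and the labels do not pair mice across groups by number. Deviations of same-numbered arrays correlated at −0.041 to 0.206 between groups, and not every pair was above 0.1. Before scaling, the first array had the higher trimmed mean signal in every group. It was 214 against 178 with telmisartan, 237 against 228 with candesartan, 248 against 211 in HFD and 265 against 234 in chow. Whether same-numbered arrays shared a handling step was not tested. No scan date or batch was given, so none was tested. List genes with no single-symbol probe set (Il1rl1, Irak4, Nfkb1, Nlrc4, Nlrp1a, Nlrp1b, Naip1 and Gbp5) were not analysed here.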

Additional observations from a re-analysis of the deposited data

How the results depend on the processing

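The members called over all high-fat arrays against chow (Il1rn, Casp1, Pycard and, at the settings that kept its probe set, Il1r2) kept direction and call under every alternative that changed the processing and not the arrays. In HFD against chow Il1rn kept its call under all of them, and Casp1 and Pycard lost theirs only with no filter, which left 1 member called, as it did for candesartan against chow. Pycard with telmisartan against chow was also lost with no filter (limma adjusted p = 0.0688). The 70th percentile filter removed the dim members. Il1r2 was called in HFD and with candesartan against chow with no intensity trend (limma adjusted p = 0.0407 and 0.0254). With only the arrays of the groups compared, telmisartan against chow had 2 members and 198 genes called.

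Counts over all genes moved more. With no filter limma called 332 (telmisartan against chow), 164 (candesartan against chow), 174 (HFD against chow) and 712 (all high-fat arrays against chow), and 4, 6, 1 and 6 genes for telmisartan against HFD, candesartan against HFD, both drugs against HFD and telmisartan against candesartan. Median centring gave 575 for HFD and 973 for all high-fat arrays against chow, and no scaling gave 2045 for telmisartan against chow and 1 for telmisartan against candesartan. Without both telmisartan arrays, a setting chosen after seeing the data, candesartan gave 1313 and HFD 1606 against chow. Median centring shifted the median of all genes by 0.27 for telmisartan against HFD, 0.15 for candesartan against HFD, 0.12 for telmisartan against candesartan and 0.17 for telmisartan against chow, and no scaling shifted the last by −0.35. The share of calls that were higher was 58.8% for telmisartan, 68.0% for candesartan and 56.3% for all high-fat arrays against chow. It became 88.5%, 85.5% and 74.8% with median centring, and 15.9% for telmisartan and 34.3% for all high-fat arrays with no scaling.

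Values near 0 changed sign, none of them called. With quantile normalization these were Il18bp in HFD against chow (−0.076), Il1rn (0.061) and Casp1 (0.017) with telmisartan against HFD, and Pycard with candesartan against HFD (−0.018). With median centring they were Il18 (−0.014) and Il18bp (−0.070) in HFD against chow, Il1rn (0.27) and Casp1 (0.27) with telmisartan against HFD, and Il1rn with candesartan against HFD (0.080). With no scaling they were Il18 (−0.036) and Il18bp (−0.092) in HFD against chow, Il18 over all high-fat arrays (−0.14), Il18bp with candesartan against chow (−0.021), and Pycard (−0.077) and Nlrp3 (−0.070) with telmisartan against HFD. Median centring and no scaling differ from the main scaling by a constant factor per array. Genes above the floor therefore all shift alike in a comparison. For HFD against chow the median of all genes shifted by −0.099 with median centring and −0.12 with no scaling. The cause of the sign changes with quantile normalization was not tested.

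Leaving out 1 array gave 528 to 1683 calls for telmisartan, 117 to 1315 for candesartan, 165 to 1611 for HFD and 832 to 2527 for all high-fat arrays against chow. Log2 values that turned ran from −0.26 to 0.082 (Il1b) and −0.38 to 0.43 (Il18bp) in HFD against chow, −0.083 to 0.18 (Il18, all high-fat arrays), and −0.0060 to 0.16 (Il18bp) and −0.12 to 0.74 (Nlrp3) with candesartan against chow. With telmisartan against HFD they ran from −0.15 to 0.15 (Il1rn), −0.31 to 0.30 (Casp1), −0.13 to 0.43 (Pycard) and −0.55 to 0.87 (Nlrp3). With candesartan against HFD they ran from −0.40 to 0.25 (Il1rn), −0.042 to 0.15 (Casp1), −0.13 to 0.13 (Pycard), −0.010 to 0.42 (Il1r2), −0.36 to 0.45 (Il18bp) and −0.76 to 0.11 (Nlrp3). The ratio of Il1rn to Il1b ran from 2.71 to 2.95. With the replicate number as a block, 1220 (telmisartan), 973 (candesartan), 1280 (HFD) and 1851 (all high-fat arrays) genes were called against chow, and the replicate block changed no member's call. With 2 arrays a group, dim members such as Il1b and Nlrp3 limit what could be seen.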

Other observations

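For each member, the 2 genes whose log2 signal followed it most closely over the 8 arrays are given as a description. The arrays share their diet groups, which set much of each correlation, and 10890 genes were searched. Casp1 ran closest with Coro1a (Pearson r = 0.996) and Was (0.995), both genes of the actin skeleton of blood cells, and Pycard with Smap2 (0.996) and Wdfy4 (0.992). Il1rn ran closest with Ltv1 (0.997) and Vsig8 (0.995), and Il1r1 with Dock10 (0.997) and Obi1 (0.991). Il1r2 ran with Twf2 (0.976) and Ifnar2, a chain of the type I interferon receptor (0.971). Il18bp ran with Cyp4f18 (0.967) and Clec10a, a macrophage lectin (0.914). Il18 ran with Clk2 (0.984) and Zzef1 (0.979), Nlrp3 with Ncoa7 (0.972) and Slc12a7 (0.967), and Il1b with Kcp (0.952) and Ablim1 (0.939).

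Markers of other cells were counted beside the members. Of 7 measured adipocyte markers, 2 were called in HFD against chow, both lower, where 8.09% of all genes were called in either direction. Adipoq, Lep, Fabp4, Cidec and Lipe were not called, with Lep and Fabp4 higher in mean signal and the rest lower. Slc2a4, the insulin-responsive glucose transporter gene, was at log2 −1.70 (limma adjusted p = 0.00514). Pparg, the adipocyte nuclear receptor gene, was at −0.81 (limma adjusted p = 0.0333). Slc2a4 lost that call without the first HFD array and with no filter (limma adjusted p = 0.0634 and 0.0727). Pparg lost it without any 1 of the HFD or chow arrays (limma adjusted p between 0.0784 and 0.207), and with median centring, no filter or no intensity trend (0.113, 0.137 and 0.0672). The summed signal of the 7 was 75621 and 68298 with telmisartan, 69993 and 64575 with candesartan, 63775 and 67628 in HFD, and 63849 and 73532 in chow. Both telmisartan sums lay above both HFD sums, and every other pair of groups overlapped. Over all high-fat arrays against chow, 7.59% of all genes were called higher. Of the tested lymphocyte markers, 2 of 4 for T and NK cells and 1 of 3 for B cells were called higher. Cd3g, Cd8a, Ms4a1 and Cd79a were tested and not called. Those called were the cytotoxic lymphocyte genes Nkg7 (log2 1.30, limma adjusted p = 0.0254) and Klrd1 (0.76, 0.0322) and the B cell receptor gene Cd79b (1.39, 0.0434). Each kept its call in 3 of the 8 fits that left out 1 array (limma adjusted p up to 0.164 for Nkg7, 0.191 for Klrd1 and 0.220 for Cd79b), and lost it with no filter (0.122, 0.0804 and 0.178). Klrd1 was also lost with median centring or no scaling, and Cd79b with a pseudocount of 16, no intensity trend or every probe set fitted.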
